A study of Mus musculus with 4 samples.

Results

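The transcription factor genes Runx1, Runx2, Runx3, Ikzf1, Ikzf3, Ets1, Gata3, Bcl11b and Maf, with Cbfb, the partner of the Runx proteins, were followed in splenic natural killer (NK) cells of Tcf7 knock-out (KO) and wild-type (WT) mice. These 10 genes were taken by symbol from the 26611 genes of the deposited count table, and all 10 were among the 12723 genes with enough counts to test. The study sequenced RNA from NK cells of 2 Tcf7 KO and 2 WT mice, all on the C57BL/6 background, with each library from its own animal. Cells were sorted from spleen as negative for the T cell receptor beta chain and positive for NK1.1, NKp46, CD11b and KLRG1, which are surface proteins of mature NK cells. The labels give neither the Tcf7 allele nor whether cells other than NK cells lack the gene, and they give no age or treatment. The comparison asks whether RNA of these factors differs in mature NK cells that lack Tcf7, the gene of the DNA-binding protein Tcf-1.

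Runx proteins bind DNA as pairs with Cbfb and act as activators or repressors of lymphocyte genes. Runx3 is known for its part in NK cells and cytotoxic T cells. Ikzf1 (Ikaros) and Ikzf3 (Aiolos) are zinc finger proteins that recruit chromatin remodelling complexes, and Ets1 is needed for normal NK cell development. Gata3 and Bcl11b are best known from T cells, where early in the thymus Tcf-1 acts upstream of both genes, and Maf regulates cytokine genes in several lymphocytes.

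Promoters are shown because Tcf-1 binds DNA directly, and because the Runx genes are known to be controlled in part by Runx sites. RefSeq promoter sequences (GRCm38.p6) were matched for 7 of the 10 genes, all but Ikzf3, Ets1 and Maf, with 10 promoters in all, and the 250 bases before each start were searched. The words for Tcf/Lef were CTTTGA and CTTTGT, and those for Runx were TGTGGT and TGCGGT. Both strands were read. A Tcf/Lef word was present in 4 of the 10 promoters, against 27.6% of 32851 promoters of all genes, and a Runx word in 2, against 18.6%. An Ets word was present in the promoters of Runx2, Cbfb and Bcl11b and in promoter 2 of Ikzf1, against 37% of promoters of all genes. A GATA word was found in none of the 10 promoters, against 26.5%. A match is a description of the sequence and does not show binding. Capitals mark the Tcf/Lef words in the first 4 sequences below and the Runx words in the last one, which are written 5′ to 3′ on the strand of the gene.
Runx2, chr17:44814628-44814877, minus strand: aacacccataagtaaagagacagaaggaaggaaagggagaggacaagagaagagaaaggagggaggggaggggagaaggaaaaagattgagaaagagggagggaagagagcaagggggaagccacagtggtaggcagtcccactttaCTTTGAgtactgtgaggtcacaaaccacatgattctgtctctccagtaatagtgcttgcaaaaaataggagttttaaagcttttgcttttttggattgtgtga
Ikzf1 promoter 1, chr11:11685675-11685924, plus strand: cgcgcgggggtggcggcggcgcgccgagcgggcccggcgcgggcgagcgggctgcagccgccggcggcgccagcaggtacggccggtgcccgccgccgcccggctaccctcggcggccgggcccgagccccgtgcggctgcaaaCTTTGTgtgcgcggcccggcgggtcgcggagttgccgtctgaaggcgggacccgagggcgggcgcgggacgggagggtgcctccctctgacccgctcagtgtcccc
Ikzf1 promoter 2, chr11:11689927-11690176, plus strand: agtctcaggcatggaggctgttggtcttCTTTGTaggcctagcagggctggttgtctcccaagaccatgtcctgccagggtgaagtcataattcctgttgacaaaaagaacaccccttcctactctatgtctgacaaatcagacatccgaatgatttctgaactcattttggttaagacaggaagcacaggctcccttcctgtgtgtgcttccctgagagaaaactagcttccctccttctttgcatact
Bcl11b, chr12:108003415-108003664, minus strand: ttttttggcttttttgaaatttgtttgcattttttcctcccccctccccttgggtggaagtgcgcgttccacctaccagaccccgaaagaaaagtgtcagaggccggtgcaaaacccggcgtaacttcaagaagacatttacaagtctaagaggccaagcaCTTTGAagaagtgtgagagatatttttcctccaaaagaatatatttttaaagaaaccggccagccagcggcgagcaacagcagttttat
Runx3 upstream promoter, chr4:135120395-135120644, plus strand: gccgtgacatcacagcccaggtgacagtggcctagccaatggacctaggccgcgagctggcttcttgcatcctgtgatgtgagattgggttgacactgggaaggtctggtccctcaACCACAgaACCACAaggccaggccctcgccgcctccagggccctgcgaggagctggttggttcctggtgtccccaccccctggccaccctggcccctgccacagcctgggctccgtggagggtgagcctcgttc
The first base of the Tcf/Lef word lay 103 bases before the start in Runx2, 106 and 222 bases before it in the Ikzf1 promoters and 89 bases before it in Bcl11b. The upstream promoter of Runx3 held a pair of Runx words on the minus strand, 134 and 126 bases before the start. Runx2 also held a Runx word, 80 bases before its start. The counts are summed over each gene and do not show which promoter was used.

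Library totals were 28254693 to 40175537 counts, and values per library are given as TMM-scaled counts per 1e6 counts (CPM). Tcf7 itself stood at 11.2 and 25.1 CPM in KO libraries 1 and 2, against 89.5 and 79.1 CPM in WT libraries 1 and 2, in the direction of the labels (log2 fold change -2.22, SE 0.45, DESeq2 adjusted p = 0.00216, edgeR adjusted p of 1). NK cell genes were abundant in all 4 libraries, with Ncr1 (NKp46) at 1611 and 1510 CPM in KO and 1732 and 1557 CPM in WT. Of the T cell genes, Cd4, Cd8a and Cd3e stayed under 1 CPM in every library, while Cd3d reached 3.82 CPM, Cd3g 5.42 CPM and the receptor constant genes Trbc1 and Trbc2 56.0 to 121 CPM. With 2 libraries per genotype each p-value leans on a spread estimated over many genes at once. RNA was measured in bulk, so fewer cells that carry a transcript and less of it per cell cannot be told apart.

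To compare genes with each other, levels were scaled by gene length to TPM, in which every library has the same total. Ets1 had the highest mean level, with 388 and 435 TPM in KO and 426 and 610 TPM in WT libraries. Ikzf1 followed with 284 and 452 TPM in KO and 386 and 477 TPM in WT. Cbfb stood at 259 and 278 TPM in KO and 268 and 250 TPM in WT, and Ikzf3 at 153 and 376 TPM in KO and 149 and 351 TPM in WT. These 4 genes ranked 289 to 593 among all genes of the table by mean TPM.

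Runx3 was the most abundant Runx gene, at 38.7 and 190 TPM in KO and 62.7 and 183 TPM in WT libraries. Runx1 had a mean of 45.0 ± 34.5 TPM in KO and 45.3 ± 24.2 TPM in WT (SD, n = 2 each), and Gata3 had 35.1 ± 26.3 TPM in KO and 38.8 ± 17.2 TPM in WT. Runx2 had means of 14.4 TPM in KO and 15.9 TPM in WT, and Maf had 13.4 TPM in KO and 11.4 TPM in WT. Bcl11b was the lowest, at 0.832 and 3.93 TPM in KO and 0.683 and 2.94 TPM in WT libraries. Within each of the 4 libraries Runx3 lay above Runx1, Runx1 above Gata3 and Gata3 above Runx2. Ets1 and Ikzf1, Cbfb and Ikzf3, and Runx2 and Maf are neighbours whose order differed between libraries. Only Ikzf1 and Cbfb, and Maf and Bcl11b, were neighbours with ranges that did not overlap across the 4 libraries.

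**Figure D1:**
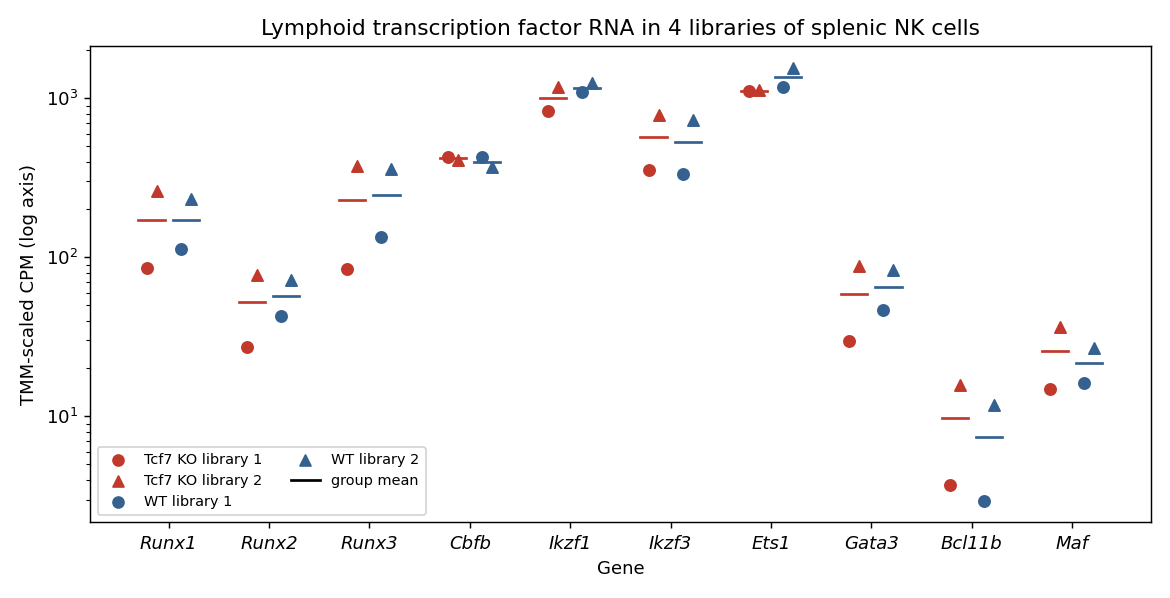
TMM-scaled CPM on a log axis for the 10 genes, with Tcf7 KO libraries in red, left of WT libraries in blue, circles for library 1, triangles for library 2 and bars for group means. For Bcl11b, the gene with the largest fold change of the 10, group means are 9.76 CPM in KO and 7.37 CPM in WT. Both libraries 2 lie above both libraries 1 for 8 genes, as for Runx3 with 375 against 85.0 CPM in KO and 361 against 133 CPM in WT.

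None of the 10 genes passed the test between genotypes. edgeR's quasi-likelihood test gave each an adjusted p of 1 over all tested genes, and DESeq2 likewise. Of all 12723 genes, edgeR called 0% and DESeq2 called 0.558% (71 genes) at an adjusted p under 0.05. limma's voom likewise called 0 of the 10 genes, against 0% of all genes. With the library number as a term of the model (a block) edgeR called 0 of the 10, against 1.74% of all genes. At an unadjusted edgeR p under 0.05 there were 0 of the 10 genes and 2.84% of all genes. The log2 fold changes, KO over WT, ran from -0.30 to 0.41 with a median of -0.05, against a median of -0.01 over all tested genes, and 6 of the 10 were below 0, against 51.8% of all genes. That median turned with the library left out: it was 0.50 without KO library 1, -0.75 without KO library 2, -0.40 without WT library 1 and 0.48 without WT library 2. The test could not bound most of them closely, as the 95% intervals given below show, and a p above the threshold does not show that the genotypes were alike.

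Among the Runx genes, Runx3 (chromosome 4, 135120645 to 135177990) had 85.0 and 375 CPM in KO libraries 1 and 2 and 133 and 361 CPM in WT libraries 1 and 2. Its groups overlapped, and the level in library 2 was 4.41 times that in library 1 in KO and 2.71 times in WT. The fold change had a log2 value of -0.10 (SE 0.85), with a 95% interval from 0.193-fold to 4.51-fold. Runx1 (chromosome 16, 92601466 to 92826074), which is needed for blood stem cells to form, had 85.7 and 260 CPM in KO and 113 and 232 CPM in WT. Its log2 fold change was 0.00 (SE 0.65) and its 95% interval 0.300-fold to 3.33-fold. Runx2 (chromosome 17, 44495987 to 44814797), best known as the regulator of bone formation, had 27.3 and 76.9 CPM in KO and 42.6 and 71.6 CPM in WT, with a log2 fold change of -0.13 (SE 0.58). In all 3 Runx genes KO library 1 was the lowest of the 4 libraries and KO library 2 the highest.

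Cbfb (chromosome 8, 105170674 to 105217989) had the smallest standard error of the 10 genes. It stood at 425 and 411 CPM in KO and 427 and 368 CPM in WT libraries, with means of 418 ± 9.80 CPM in KO and 397 ± 41.5 CPM in WT (SD, n = 2 each). The groups overlapped. The log2 fold change was 0.07 (SE 0.20) with a 95% interval of 0.731-fold to 1.51-fold, the narrowest of the 10.

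Of the Ikaros genes, Ikzf1 (chromosome 11, 11684962 to 11772930) had 827 and 1185 CPM in KO and 1088 and 1243 CPM in WT libraries. KO library 1 was the lowest of the 4, and KO library 2 lay between the WT libraries. The log2 fold change was -0.21 (SE 0.26), with a 95% interval from 0.532-fold to 1.40-fold. Ikzf3 (chromosome 11, 98464610 to 98546031) had 354 and 782 CPM in KO and 333 and 727 CPM in WT. Its groups overlapped, and library 2 stood at 2.21 times the level of library 1 in KO and 2.18 times in WT. Its log2 fold change was 0.10 (SE 0.56).

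Ets1 (chromosome 9, 32636241 to 32757820) was the one gene of the 10 whose groups did not overlap. It had 1107 and 1119 CPM in KO and 1178 and 1559 CPM in WT libraries, with means of 1113 ± 8.70 CPM in KO and 1368 ± 270 CPM in WT (SD, n = 2 each). Each KO library was lower than each WT library, as for 11.5% of all tested genes. None of the 10 genes had both KO libraries higher, as 9.64% of tested genes had, and 21.2% had no overlap in either direction. The log2 fold change was -0.30 (SE 0.23), the lowest of the 10 genes, with an unadjusted edgeR p of 0.261, an adjusted p of 1 and a 95% interval of 0.531-fold to 1.25-fold. WT library 2 stood apart from the other 3 libraries, and without it the log2 fold change was -0.06, against -0.49 without WT library 1.

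Gata3 (chromosome 2, 9857078 to 9887953) had 29.8 and 87.7 CPM in KO and 46.6 and 82.8 CPM in WT libraries, and a log2 fold change of -0.14 (SE 0.61). As in the Runx genes, KO library 1 was the lowest and KO library 2 the highest. Bcl11b (chromosome 12, 107910403 to 108004145) had 3.72 and 15.8 CPM in KO and 2.95 and 11.8 CPM in WT, from 109 and 570 counts in KO and 96 and 463 counts in WT. Its log2 fold change of 0.41 (SE 0.95) was the highest of the 10, and its 95% interval, from 0.227-fold to 7.72-fold, was the widest. Maf (chromosome 8, 115703253 to 115706894) had 14.8 and 36.4 CPM in KO and 16.2 and 27.1 CPM in WT, and a log2 fold change of 0.24 (SE 0.53). In all 3 genes the genotypes overlapped.

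Exons of genes annotated on the opposite strand overlap those of Runx1, Runx2, Gata3 and Maf, by 106, 519, 155 and 440 bases in the GENCODE M21 annotation. The strand setting of the counting is not given in the sources used here, so reads of these antisense partners cannot be told apart from those of the 4 genes.

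**Figure D2:**
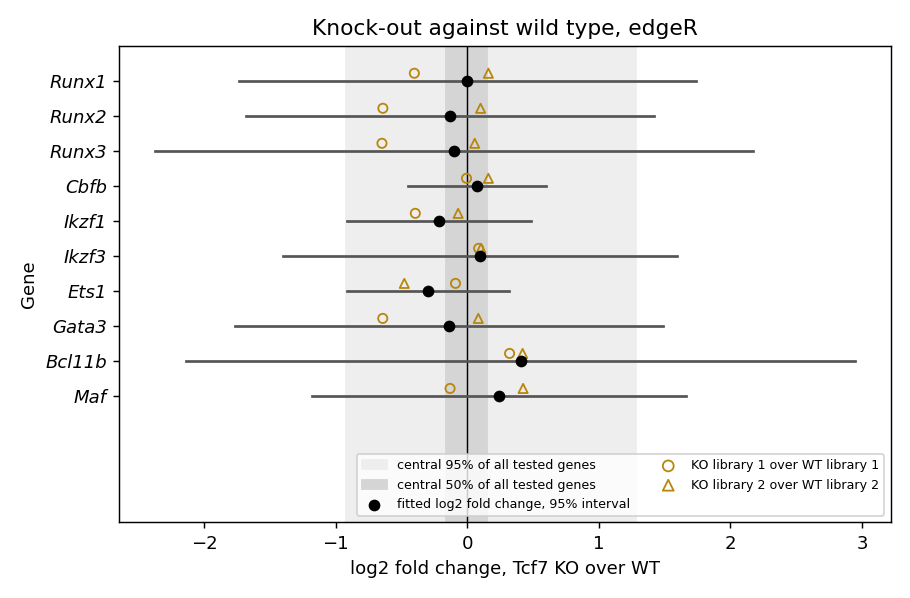
Log2 fold change of Tcf7 KO over WT for the 10 genes, as black points with 95% intervals from edgeR, and the ratio within libraries numbered 1 (open circles) and 2 (open triangles); shading shows the central 50% and 95% of all 12723 tested genes. All 10 intervals include 0, with Cbfb the narrowest and Bcl11b the widest.

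Between libraries of the same number, the sign of the KO over WT ratio was opposite in 6 of the 10 genes. Runx1, Runx2, Runx3 and Gata3 had log2 ratios of -0.40, -0.64, -0.65 and -0.64 for KO 1 over WT 1, and of 0.16, 0.10, 0.06 and 0.08 for KO 2 over WT 2. Maf had -0.13 and 0.42, and Cbfb -0.01 and 0.16. Ets1 (-0.09 and -0.48) and Ikzf1 (-0.39 and -0.07) were below WT in both, as were 30.8% of all tested genes. Bcl11b (0.32 and 0.42) and Ikzf3 (0.09 and 0.10) were above WT in both, as were 26.2%. The median over the 10 genes was -0.26 for KO 1 over WT 1 and 0.10 for KO 2 over WT 2.

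The larger difference among these genes lay between library numbers. Both libraries numbered 2 lay above both numbered 1 for 8 of the 10 genes, against 34.6% of all tested genes, and for 7 of them the ratio was at least 1.5 in each genotype, against 13.8%. Bcl11b had log2 ratios of library 2 over library 1 of 2.06 in KO and 1.96 in WT, and Runx3 of 2.14 in KO and 1.44 in WT. Runx1, Gata3, Runx2, Maf and Ikzf3 had 1.60, 1.55, 1.49, 1.29 and 1.14 in KO, and 1.04, 0.83, 0.75, 0.73 and 1.13 in WT. Ikzf1 had smaller ratios, 0.52 in KO and 0.19 in WT. Cbfb went the other way, at -0.05 in KO and -0.21 in WT, and Ets1 had 0.02 in KO and 0.40 in WT.

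Gene length moved with this difference across the whole table. Over 10468 genes with a mean of at least 1 CPM and a known GC content, Spearman's correlation between gene length and the ratio of library 2 over library 1 was 0.58, and with the GC content of the transcripts it was 0.19. These values are a description across genes, which share the same 4 libraries. Among all genes of at least 1 CPM and 2001 to 3000 bases, both libraries numbered 2 lay above both numbered 1 in 31.8%, and Cbfb, at 2914 bases, was not one of them. The share was 43.2% for 3001 to 4000 bases, where Gata3, Maf and Runx3 fall, and 56.5% for 4001 to 5000 bases, where Ikzf3 falls. It was 70.0% for 5001 to 7000 bases, the class of Ets1, Ikzf1 and Runx2, and 84.1% above 7000 bases, the class of Runx1 and Bcl11b. Runx3 and Bcl11b also had the highest GC content of the 10 genes, 60.7% and 63.1%, against a median of 50.4% over these genes, and Cbfb the lowest, 42.5%.

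With offsets for GC content and gene length, smooth corrections fitted over all genes, the log2 ratio of library 2 over library 1 was 1.62 in KO and 1.00 in WT for Runx3, and 0.86 in KO and 0.99 in WT for Bcl11b. Gata3, Maf and Ikzf3 had 1.29, 1.08 and 0.84 in KO, and 0.61, 0.59 and 0.91 in WT. Runx1 and Runx2 had 0.73 and 0.59 in KO, and 0.41 and 0.07 in WT. Ikzf1 changed sign, to -0.15 in KO and -0.32 in WT, and Ets1 changed sign in KO, with -0.49 in KO and 0.06 in WT. Cbfb had -0.04 in KO and -0.16 in WT. What sets the libraries of a number apart is not given in the labels and was not tested. With the same offsets the KO over WT fold changes of the 10 genes stayed uncalled, with Ets1 at -0.17 and Bcl11b at 0.58 on the log2 scale.

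**Figure D3:**
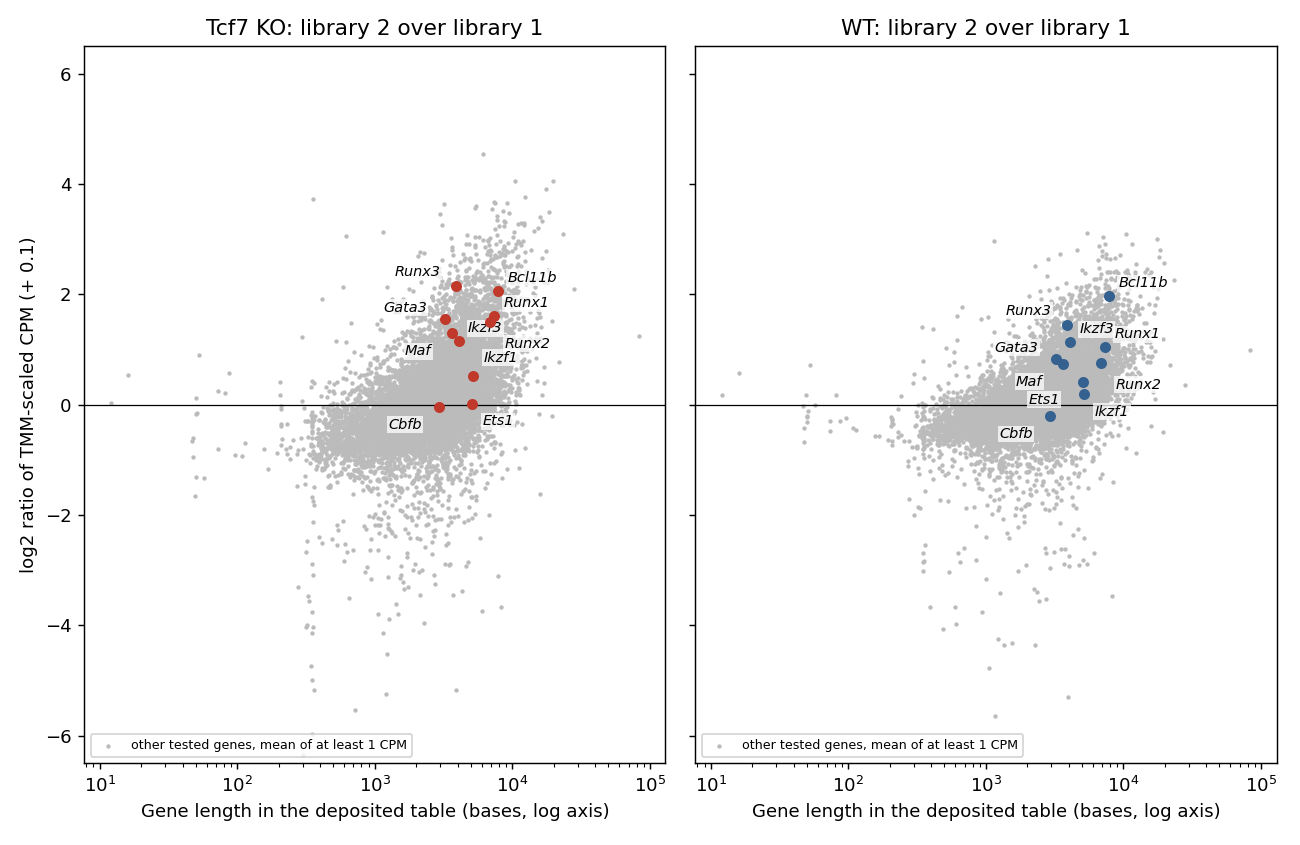
Log2 ratio of library 2 over library 1 (TMM-scaled CPM plus 0.1) against gene length on a log axis, for Tcf7 KO (left) and WT (right), with the 10 genes named and other tested genes in grey. Bcl11b, Runx3 and Runx1 lie well above 0 in both genotypes, at 1.04 to 2.14, and Cbfb lies just below it.

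Shares within each family were compared as TPM, because they do not depend on how libraries are scaled to each other. They are not free of the difference between library numbers, which moved with gene length across all genes. Runx3 made up 58.4% and 67.5% of Runx RNA in KO and 61.4% and 68.9% in WT libraries. Runx1 made up 31.1% and 24.7% in KO and 27.5% and 23.4% in WT, and Runx2 between 7.69% and 11.0% in the 4 libraries. The mean Runx3 share was 63.0 ± 6.47% in KO and 65.2 ± 5.28% in WT (SD, n = 2 each), a difference of -2.18 percentage points (exact two-sided permutation test, p = 0.667). With 2 libraries per genotype this test cannot give a p under 0.333. The difference turned with the library left out: it was 2.39 without KO library 1, -6.76 without KO library 2, -5.92 without WT library 1 and 1.55 without WT library 2. The Runx3 share was higher in library 2 of both genotypes.

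In the Ikaros family Ikzf3 made up 33.5% and 44.2% of the RNA in KO and 26.8% and 41.3% in WT libraries. The means were 38.8 ± 7.56% in KO and 34.1 ± 10.2% in WT (SD, n = 2 each; exact two-sided permutation test, p = 0.667). Their difference of 4.75 percentage points was 10.1 without KO library 1, -0.60 without KO library 2, -2.49 without WT library 1 and 12.0 without WT library 2. The Ikzf3 share was higher in library 2 of both genotypes. Ikzf1 held 62.1% and 53.1% in KO and 69.5% and 56.1% in WT. Ikzf5 held 2.47% to 4.27%, and Ikzf2 (Helios) at most 0.152%. Ikzf4 (Eos) had 0 counts in 3 libraries and 1 in WT library 2, where 3 counts is the floor. The ratio of Cbfb to summed Runx level was 3.90 and 0.988 in KO and 2.63 and 0.938 in WT (exact two-sided permutation test of the means, p = 0.667). The difference of the means, 0.66, was -0.79 without KO library 1, 2.12 without KO library 2, 1.51 without WT library 1 and -0.18 without WT library 2. The ratio was lower in library 2 of both genotypes.

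**Figure D4:**
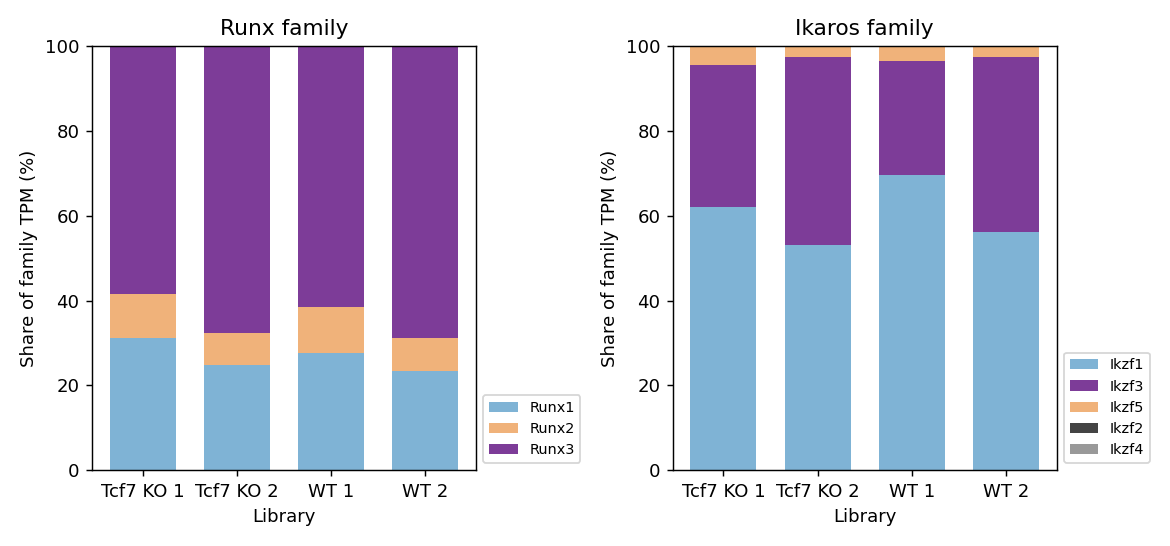
Share of family TPM (percent) for the Runx genes (left) and the Ikaros genes (right) in each Tcf7 KO and WT library. Runx3 is the largest Runx part, at 58.4% to 68.9%, and Ikzf1 the largest Ikaros part, at 53.1% to 69.5%, in all 4 libraries; Ikzf2 and Ikzf4 are too small to see.

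Other genes of the same families were not called either. Of 21 relatives 19 had enough counts to test, and edgeR and DESeq2 called 0, against 0% and 0.558% of all tested genes. An unadjusted edgeR p under 0.05 was seen in 0, against 2.84% of all tested genes. The median log2 fold change was -0.06. Groups did not overlap for 7 of the 19, against 21.2% of all tested genes. Elf4, an Ets family gene active in NK cells, had 305 and 766 CPM in KO and 485 and 763 CPM in WT libraries. Fli1, another Ets factor, had 58.7 and 109 CPM in KO and 62.6 and 111 CPM in WT. Elf1 had 290 and 287 CPM in KO and 310 and 296 CPM in WT. Ikzf2 had 2.80 and 2.88 CPM in KO and 3.23 and 6.16 CPM in WT (log2 fold change -0.73, SE 0.44, edgeR adjusted p of 1). Ikzf5 (0.07), Elk3 (-0.09) and Elf2 (-0.06) had the log2 fold changes given, none of them called. Gata1, the red cell member of the Gata family, had 1.71 and 0.194 CPM in KO and 0.492 and 0.178 CPM in WT. Ets2 had the smallest unadjusted edgeR p of the 19 (0.0724, log2 fold change 0.82, SE 0.35). It stood at 19.5 and 32.5 CPM in KO and 12.6 and 16.9 CPM in WT, without overlap. Of the 19 relatives, 8 had a log2 fold change above 0 and 11 below.

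Partner and corepressor genes of these factors were not called either. All 22 were tested and edgeR and DESeq2 called 0, against 0% and 0.558% of all tested genes. An unadjusted edgeR p under 0.05 was seen in 0, against 2.84% of all tested genes. The median log2 fold change was -0.02. Groups did not overlap for 3 of the 22, against 21.2% of all tested genes. Tle1 had the lowest log2 fold change, -0.58 (SE 0.26), with 6.99 and 6.07 CPM in KO and 9.05 and 10.5 CPM in WT. Tle5, a short Groucho family protein, was the most abundant, at 557 and 712 CPM in KO and 640 and 857 CPM in WT libraries. Mta2, a subunit of the NuRD remodelling complex that Ikaros proteins recruit, had 416 and 414 CPM in KO and 436 and 432 CPM in WT (log2 fold change -0.07, SE 0.18). Rbbp4 and Rbbp7, histone-binding subunits of the same complex, had log2 fold changes of 0.06 and -0.01. Both libraries numbered 2 lay above both numbered 1 for 13 of the 22, against 34.6% of all tested genes.

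Of 16 genes described as targets of these factors in lymphocytes, 11 were tested and edgeR called 0, against 0% of all tested genes. An unadjusted edgeR p under 0.05 was seen in 1, against 2.84% of all tested genes. DESeq2 called 1 of the 11, against 0.558% of all tested genes. It was the interleukin 7 receptor gene Il7r, lower in KO (DESeq2 adjusted p = 1.68e-05). Il7r stood at 0.648 and 1.08 CPM in KO and 9.38 and 5.80 CPM in WT libraries (log2 fold change -3.12, SE 0.48, edgeR adjusted p of 1). Groups did not overlap for 4 of the 11, against 21.2% of all tested genes. Ifng and Gzmb were higher in KO, and Id2 and Il7r lower. The targets that are most abundant did not pass: Prf1 (perforin) had a log2 fold change of -0.06 (SE 0.30), Gzmb (granzyme B) of 0.47 (SE 0.21), Il2rb of -0.09 (SE 0.29) and Id2 of -0.20 (SE 0.19). Gzmb stood at 2799 and 2688 CPM in KO and 2116 and 1842 CPM in WT. Il10, Il21, Il4, Il5 and Il13, cytokine genes that Maf and Gata3 serve in T cells, had too few counts to test, and Il21 and Il13 had 0 counts in every library.

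**Figure D5:**
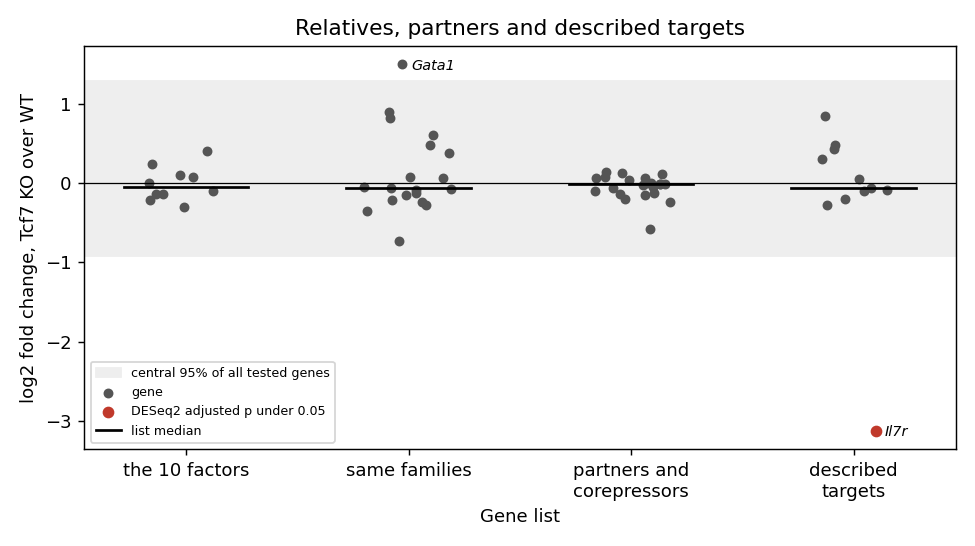
Log2 fold change of Tcf7 KO over WT for the 10 factors, their relatives, partners and described targets, with list medians as bars; shading is the central 95% of all tested genes. The medians lie between -0.06 and -0.02, and Il7r, in red, is the one gene called by DESeq2.

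Several of these factors are also made by T cells, B cells and other innate lymphoid cells, so markers of those cells are given beside them. The 14 T cell markers summed to 352 and 190 CPM in KO and 330 and 253 CPM in WT libraries, and none was at 0 in every library. Of the 12 T cell markers tested DESeq2 called 1 higher and 1 lower, against 0.558% of all tested genes in either direction. Trac stood at 94.0 and 36.1 CPM in KO and 5.88 and 8.30 CPM in WT (DESeq2 adjusted p = 7.04e-06), and Icos at 2.80 and 3.80 CPM in KO and 10.6 and 12.3 CPM in WT (DESeq2 adjusted p = 0.00377). Cd28, not called, stood at 39.9 and 23.1 CPM in KO and 88.9 and 64.7 CPM in WT. The B cell and plasma cell markers summed to 537 and 234 CPM in KO and 273 and 182 CPM in WT. DESeq2 called 0 of the 8 that were tested. The markers of other innate lymphoid cells summed to 6.89 and 8.96 CPM in KO and 60.5 and 28.3 CPM in WT, nearly all from Il7r and Kit, with Il13 at 0 in every library. Kit stood at 5.11 and 7.21 CPM in KO and 50.3 and 21.9 CPM in WT (DESeq2 adjusted p = 0.000792).

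Myeloid markers summed to 1692 and 1260 CPM in KO and 879 and 639 CPM in WT, of which Itgax (CD11c), which NK cells also express, made up 1127 and 1165 CPM in KO and 733 and 603 CPM in WT. The granulocyte genes Mpo and Elane were called higher by DESeq2. Mpo stood at 11.3 and 2.97 CPM in KO and 0.246 and 0.0255 CPM in WT (DESeq2 adjusted p = 1.08e-05), and Elane at 6.24 and 0.915 CPM in KO and 0.0615 and 0 CPM in WT (DESeq2 adjusted p = 0.000665). S100a8, not called, stood at 118 and 22.4 CPM in KO and 9.94 and 0.687 CPM in WT. Erythroid and platelet markers summed to 417 and 280 CPM in KO and 248 and 222 CPM in WT, of which Car2 made up 218 and 158 CPM in KO and 211 and 194 CPM in WT. The hemoglobin genes Hba-a1, Hba-a2 and Hbb-bs were called higher by DESeq2 (adjusted p = 3.27e-06, 6.37e-08 and 0.00451), and Hba-a2 stood at 70.1 and 53.5 CPM in KO and 13.3 and 10.9 CPM in WT. The edgeR test called none of the markers, against 0% of all tested genes. Their part in the levels of the 10 genes was not tested.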

How the data were processed

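The authors deposited whole-number counts per gene, with Entrez gene numbers and a gene length, per the file headers. The submitters' processing notes name featureCounts and the mm10 build; versions, the aligner and the strand setting are not given in the sources used here. Libraries came from 200 ng of total RNA with a TruSeq kit and paired-end sequencing, per the labels' protocols. The series table and the 4 single-sample files held the same counts, and 25275 of 26611 gene numbers had a symbol in a RefSeq table (GRCm38.p6).

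The 10 genes and all gene lists were chosen with earlier results of these data known. All 10 genes and Tcf7 were named, with the relatives, partners and targets called by edgeR or DESeq2, up to 4 of the most abundant others in each of these 3 lists, and some relatives fixed by name, of which 1 is not reported here. Some further genes were given by value after their values were seen (Gata1, Ets2, Tle1, the cell type markers and those listed as untested).

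Genes were kept with filterByExpr (minimum count 10). Genotypes were compared in edgeR 4.0.16 (R 4.3.3) by robust quasi-likelihood fits after TMM scaling, genotype being the only term, with Benjamini-Hochberg adjustment over all 12723 genes and a threshold of 0.05. CPM is TMM-scaled. SE and 95% intervals come from the same fit, and TPM from the counts and deposited lengths. Log2 ratios between single libraries used 0.1 CPM as pseudocount, except those after offsets, which used log CPM with a prior count of 2. Ratios given as times used no pseudocount. Alternatives were DESeq2 1.42.0, limma 3.58.1 voom, other scaling and filters, the replicate number as a block, each library left out and, added after seeing the data, loess offsets for GC content (known for 91.4% of tested genes, others at the median) and length. The tests were first run on simulated counts, with the same spread for every gene and no difference between library numbers. The real libraries do differ by number, so that run does not show how the tests behave on them. Chi-square per degree of freedom between libraries was 34.6 to 266, so none was a copy of another.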

Additional observations from a re-analysis of the deposited data

How the results depend on the processing

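No alternative called any of the 10 genes: over 17 settings each, 0 of 170 fold changes had an adjusted p under 0.05, and 38 changed sign. Of the sign changes, 10 were for Runx1, whose log2 fold change was -0.0007 in the main edgeR fit. Ets1 had 0 and each other gene 2 or 4. The smallest adjusted p was 0.261, for Bcl11b, with offsets and the replicate block. The count of all genes called was 0 in edgeR as reported and with DESeq2 size factors, library size only, at least 5 CPM in 2 libraries, voom and offsets for GC content and gene length. It was 35 with no filter on low counts and 71 with DESeq2. Leaving out 1 library gave 0 to 53 calls in edgeR (33 without KO library 1, 53 without KO library 2) and 34 to 74 in DESeq2 (52 without KO library 1, 74 without KO library 2, 50 without WT library 1, 34 without WT library 2). The cause of these differences was not tested.

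The labels do not say that library numbers pair the mice. The deviations of same-numbered KO and WT libraries from their group means had a correlation of 0.728 over 12723 genes. With the replicate number as a block edgeR called 221 genes, or 253 with offsets for GC content and length as well, and 0 of the 10 genes in both. Under the block Ets1 had a log2 fold change of -0.28 (edgeR adjusted p = 0.592), Runx3 of -0.29 and Bcl11b of 0.38.

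Runx1, at 0.00 in edgeR, was at 0.019 with DESeq2 size factors and with DESeq2, 0.0099 with no filter, 0.016 at 5 CPM, 0.053 with offsets and 0.024 with offsets and block. With each library left out in edgeR, log2 fold changes ran from -0.98 to 0.62 for Runx1, -1.03 to 0.43 for Runx2, -1.50 to 0.80 for Runx3, -0.012 to 0.18 for Cbfb, -0.46 to 0.025 for Ikzf1, -0.55 to 0.78 for Ikzf3, -0.49 to -0.064 for Ets1, -1.08 to 0.44 for Gata3, -0.95 to 1.73 for Bcl11b and -0.51 to 0.75 for Maf. Ets1 kept its sign. Runx1, above 0 in DESeq2 with all libraries, was at -0.99 there without KO library 2 and -0.40 without WT library 1. With a library left out, DESeq2 gave these values opposite in sign to edgeR with all libraries. Without KO library 1 it gave 0.61 for Runx1, 0.44 for Runx2, 0.62 for Runx3, 0.039 for Ikzf1 and 0.46 for Gata3. Without KO library 2 it gave -0.56 for Ikzf3, -0.97 for Bcl11b and -0.53 for Maf. Without WT library 1 it gave -0.33 for Ikzf3, -0.24 for Bcl11b and -0.054 for Maf. Without WT library 2 it gave 0.62 for Runx1, 0.30 for Runx2, 0.80 for Runx3, -0.017 for Cbfb and 0.35 for Gata3. A lone library was assumed to vary like the others. The difference in Runx3 share ran from -6.76 to 2.39 percentage points, that in Ikzf3 share from -2.49 to 12.0, and that in the Cbfb to Runx ratio from -0.79 to 2.12.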

Other observations

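Among the partner genes, some with a wide gap between library numbers were chosen after their values were seen, and the cause was not tested. Crebbp, a histone acetyltransferase gene of 7507 bases, stood at 5.83 and 74.8 CPM in KO libraries 1 and 2 and at 9.63 and 64.5 CPM in WT libraries 1 and 2. Its relative Ep300, of 8749 bases, stood at 39.1 and 220 CPM in KO and 53.2 and 188 CPM in WT. Chd4, the remodelling enzyme of the NuRD complex, stood at 82.3 and 385 CPM in KO and 86.8 and 356 CPM in WT. Its partner subunit Mta2 stood at 416 and 414 CPM in KO and 436 and 432 CPM in WT. The 2 genes differ in length, 6438 bases for Chd4 and 3087 for Mta2, and length moved with this gap over all genes. The Groucho gene Tle3, of 5202 bases, stood at 88.2 and 442 CPM in KO and 179 and 391 CPM in WT.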
